A study of Drosophila melanogaster with 38 samples.

Results

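CG11425 and its 6 paralogues wun, wun2, laza, CG11426, CG11437 and CG11438 make up the lipid phosphate phosphatase genes described here, 7 of the 11981 genes that had a probe set with 1 gene symbol on the array. They were taken by the array's gene symbols, and each had 1 probe set. CG11425 was chosen by its difference between switched and control-fed flies, which changed late in the time course, so its values in that comparison are a description and carry no test. The paralogues were chosen by family. The flies were Canton-S females, kept with males at 25 per sex and vial in a 12 h light cycle at 25 °C, and RNA came from head and thorax of pools of at least 75 females aged 40 days at the start. SF flies lived on control food until age 40 days and were then moved to restricted food at 0 h. RF flies lived on restricted food (50 g/L each of yeast and sucrose) throughout, and CF flies lived on control food (150 g/L of each) throughout. SF, RF and CF each had 1 Affymetrix Drosophila 2.0 array at each of 12 time points from 2 to 72 h, and RF and CF had another at 0 h, which makes 38 arrays. No time point was replicated, so the spread below is over 12 successive collections of a cohort, and p-values measure only the spread between these collections.

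Lipid phosphate phosphatases are membrane enzymes that remove the phosphate from phosphatidic acid, lysophosphatidic acid and sphingosine 1-phosphate, with the active site facing the outside of the cell or the lumen of an organelle. They thereby lower lipids that act as signals and yield diacylglycerol, monoacylglycerol or sphingosine. In Drosophila the family is best known from wun and wun2 (wunen and wunen 2), which guide migrating germ cells in the embryo and affect their survival, and from laza (lazaro), which acts in photoreceptors against the diacylglycerol kinase encoded by rdgA during phototransduction. CG11425, CG11426, CG11437 and CG11438 are placed in the family by similarity, and no role of their own is given here. In the RefSeq annotation laza, CG11438, CG11437, CG11426 and CG11425 are 5 consecutive protein-coding genes on chromosome arm 3L, in that order, with CG11426 beside CG11425, and wun and wun2 lie side by side on 2R.

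Values are log2 expression scores, in which 1 unit is a factor of 2 in signal, and levels are compared between cohorts for a gene, never between genes. A probe set was tested where its scores averaged 6 or more over the 36 arrays at 2 to 72 h (9420 of 18769), and 6 of the 7 genes passed, CG11437 being the exception. Array medians ran from 5.82 to 6.09. The 2 measured photoreceptor markers (trp and Arr2) averaged 11.4 in SF, 11.5 in RF and 11.4 in CF, and 5 of 6 flight muscle markers were measured, with list means of 9.88 in SF, 10.1 in RF and 9.85 in CF. All 5 testis markers were below the minimum score in every cohort. Transcripts made in the ovary and the gut were also scored: 9 of 10 eggshell markers had list means of 12.6 in SF, 12.3 in RF and 12.4 in CF, and array values ran from 10.8 to 13.6. The 10 midgut proteases averaged 11.4 in SF, 11.8 in RF and 11.4 in CF. The 5 fat body genes averaged 11.5 in SF, 11.3 in RF and 12.0 in CF, a difference carried by the larval serum protein gene Lsp2 (-2.17 in SF minus CF and -3.17 in RF minus CF), while the yolk protein genes Yp1, Yp2 and Yp3 differed by -0.17 to -0.01 in those comparisons. Of the 4 fat body genes tested, 2 were called lower in SF minus CF, where 1.8% of all tested probe sets were called in either direction. In RF minus CF 3 of the 4 were called lower, against 2.65% of all tested probe sets. Tissue share and RNA per cell cannot be told apart in such pools. The 0 h arrays stood apart from the rest. In RF at 0 h 65.5% of the tested probe sets lay outside the range of the 12 later RF arrays and in CF at 0 h 57.7% lay outside that of the later CF arrays, against 3.46% to 41.1% for the 24 later arrays of RF and CF, each set against the other 12 arrays of its cohort. At 0 h the eggshell list averaged 5.92 in RF and 9.27 in CF. The 0 h values are therefore given apart and enter no comparison of the course.

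CG11425 in the switched flies stayed low for 12 h, stood higher at 18 h and was high from 24 h on. At 2, 4, 6, 8, 12 and 18 h SF scored 8.17, 7.93, 8.10, 7.56, 8.17 and 8.91. At 24, 32, 40, 48, 56 and 72 h SF scored 9.74, 9.69, 9.59, 9.94, 10.22 and 9.91. Every late SF array lay above every early one, with means of 9.85 ± 0.23 at 24 to 72 h and 8.14 ± 0.44 at 2 to 18 h (SD over 6 arrays each). In RF the early scores were 8.63, 8.55, 8.85, 8.85, 8.60 and 9.004, and the late scores were 9.66, 10.15, 8.71, 8.82, 8.38 and 9.11. The RF course was the flattest of the cohorts until 18 h. RF was 0.09 below SF at 24 h and above it at 32 h, and from 40 h on it was below. In CF the early scores were 7.52, 8.94, 8.86, 8.42, 8.62 and 8.80, and the late scores were 7.82, 8.32, 7.53, 7.35, 7.80 and 8.16. CF ran the other way to SF, with means of 7.83 ± 0.37 late and 8.53 ± 0.53 early, and 5 of its 6 early arrays lay above all of its late ones, the 2 h array being the exception.

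**Figure D1:**
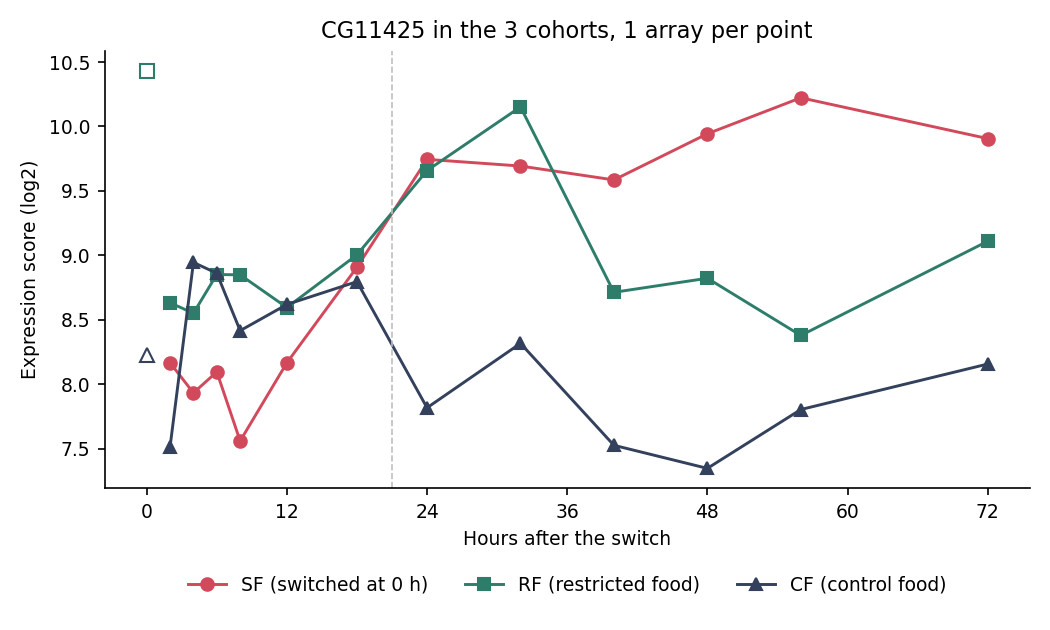
CG11425 expression score (log2) against hours after the switch in SF, RF and CF, 1 array per point, with open symbols for the 0 h arrays and a dashed line between 18 and 24 h. SF runs from 7.56 to 8.91 up to 18 h and from 9.59 to 10.22 from 24 h, while CF stays at or below 8.32 from 24 h.

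The difference between SF and CF thus had both signs. At 4 to 12 h SF was below CF at 4 of 4 hours, by a mean of -0.77 (range -1.01 to -0.45), which is a ratio of SF to CF of 0.586, and the highest SF score of those hours was below the lowest CF score. At 2 h SF stood 0.65 above a CF array that was itself low, and at 18 h the difference was 0.11. The span of 4 to 12 h was not a planned window, and it leaves out these 2 early hours, at which SF was above CF. Over all of 2 to 18 h SF minus CF averaged -0.39, with 2 of 6 hours positive. No share of all tested probe sets was worked out for 4 to 12 h. The SF and CF arrays of 6 and 8 h tended to deviate in opposite directions over the tested probe sets (r = -0.60 and -0.52). At 24 to 72 h SF was above CF at 6 of 6 hours, as in 4.51% of all tested probe sets. The differences were 1.38 to 2.60 with a mean of 2.02, a ratio of 4.06. All SF arrays of these hours lay above all CF arrays, as in 1.08% of all tested probe sets. The late difference minus the early one was 2.41, made up of a change of 1.71 within SF and of -0.70 within CF. These values chose the gene: among the 9420 tested probe sets CG11425 had the second highest such change, after phu at 2.57 and before CG43090 at 2.38. Without the CF and SF arrays of 2 h it was 2.62, and with the course split after 24 h it was 2.10.

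Against RF, the switched flies were lower early and mostly higher late. SF was below RF at 6 of 6 early hours, by 0.10 to 1.29 with a mean of -0.61, a ratio of 0.656. At 24 to 72 h SF was above RF at 5 of 6 hours, with a mean of 0.71 and a range of -0.46 to 1.84, a ratio of 1.64. The lowest late difference was at 32 h and the highest at 56 h. No share of all tested probe sets was worked out for these counts of hours. Over the tested probe sets, SF and RF arrays of 2, 4, 6, 8 and 12 h tended to deviate in opposite directions (r = -0.11, -0.30, -0.25, -0.68 and -0.53). At 18 h r was 0.36. The part of these array-wide shifts in the early CG11425 differences was not tested. Over the whole course SF averaged 8.99 ± 0.95, RF 8.94 ± 0.50 and CF 8.18 ± 0.57 (SD, n = 12 each), so that SF and RF had about the same mean and different courses. These SF values were not tested, for the reason given above.

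Between the cohorts that never changed food, CG11425 scored higher in RF than in CF and passed the test close to its threshold. The difference was 0.77 (SE 0.19, limma adjusted p = 0.0450), a ratio of 1.70, with RF above CF at 9 of 12 hours (exact two-sided sign-flip test on the 12 differences, p = 0.00586). Of all tested probe sets 4.77% were called higher in RF and 2.65% lower, 7.42% in all. This comparison shares its CF arrays with the one that chose the gene, so its test is not independent of that choice, and the call ended without any one of 9 of the 12 hours (adjusted p = 0.0590 to 0.102 without 2, 8, 18, 24, 32, 40, 48, 56 or 72 h) without the pairing (adjusted p = 0.0508), in the methods' t-test (0.0917), in a single fit of the 3 cohorts (0.158) and with no filter (0.0573). The difference averaged 0.22 at 2 to 18 h, where 3 of 6 hours were positive, and that mean rested on the 2 h pair. RF was 1.12 above the low CF array at 2 h and 0.21 above CF at 18 h, and at 4 to 12 h the mean was 0.0015 with 1 of 4 hours positive. The difference averaged 1.31 at 24 to 72 h, where 6 of 6 were positive, as in 14.4% of all tested probe sets. The lowest late RF array (8.38) lay above the highest late CF array (8.32), as in 3.08%. The late minus early change of RF minus CF was 1.09 (SE 0.26, limma adjusted p = 0.369), where 0% of all tested probe sets were called. These values use the late CF arrays, which had a part in the choice of the gene. The RF arrays had no part in the choice. Their late mean of 9.14 ± 0.66 exceeded their early mean of 8.75 ± 0.18 by 0.39, and 3 of the 6 late arrays lay above the highest early one. This change did not pass the test (SE 0.24, limma adjusted p = 0.408, where 0% of all tested probe sets were called). The SE was fitted to SF, RF and CF together, so this test is not independent of the choice either. The RF change was 0.19 without 32 h, 0.16 with the course split after 24 h, and 0.19 to 0.54 over single hours left out. At 0 h RF scored 10.43 and CF 8.23, a difference of 2.21 and a ratio of 4.62 between 2 single arrays. The RF array at 0 h was above all 12 later RF arrays, and the CF array at 0 h was above 6 and below 6 of the later CF arrays.

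Marker lists of other tissues were read at the same hours. Their part in the course of CG11425 was not tested. The midgut list in SF averaged 11.6 late (range 11.4 to 11.7) and 11.3 early (range 10.95 to 11.6), with 10 of 10 genes higher late. In RF it averaged 11.8 late and 11.8 early, and in CF 11.5 late and 11.4 early. Over the whole course of SF minus CF 0 of the 10 genes were called, with 0 at an unadjusted p under 0.05. Within SF the late minus early change had 3 of the 10 at such a p, against 8.95% of all tested probe sets, and 0 called. For SF minus CF that change was positive in 8 of the 10 (median 0.12), with 0 at such a p and 0 called. The eggshell list averaged 12.6 late and 12.6 early in SF, 12.3 late and 12.2 early in RF, and 12.7 late and 12.1 early in CF. With the eggshell mean as a covariate the late minus early change in SF minus CF of CG11425, which chose the gene, was 2.32, as against 2.41 without it. In RF minus CF that change was 0.86 with the covariate and 1.09 without it. No other list was used as a covariate. The fat body list averaged 11.3 late and 11.7 early in SF, 11.2 late and 11.3 early in RF, and 11.9 late and 12.0 early in CF. The flight muscle and photoreceptor lists were lower late than early in CF, as CG11425 was. Flight muscle averaged 9.78 late and 9.97 early in SF, 10.02 late and 10.2 early in RF, and 9.58 late and 10.1 early in CF, where 5 of 5 genes were lower late (4 at an unadjusted p under 0.05, against 39.6% of all tested probe sets, and 0 called). The 2 photoreceptor genes averaged 11.4 late and 11.4 early in SF, 11.5 late and 11.5 early in RF, and 11.2 late and 11.7 early in CF, where both were lower late (2 at an unadjusted p under 0.05, 0 called). In the late minus early change of SF minus CF 5 of 5 flight muscle genes (median 0.33) and 2 of 2 photoreceptor genes (median 0.47) were positive, the direction of CG11425, with 0 called and 0 at an unadjusted p under 0.05.

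Among the paralogues CG11426, the neighbour of CG11425, was the one called between cohorts. It scored 9.53 ± 0.20 in RF and 9.24 ± 0.15 in CF (SD, n = 12 each), a difference of 0.29 (SE 0.056, limma adjusted p = 0.00887) and a ratio of 1.22. RF was above CF at 11 of 12 hours (exact two-sided sign-flip test on the 12 differences, p = 9.77e-04), and the call held without each hour in turn (adjusted p = 0.00293 to 0.0253). It was 0.38 at 24 to 72 h, with 6 of 6 hours positive and RF above CF without overlap, as in 3.08% of all tested probe sets, and 0.21 at 2 to 18 h, with 5 of 6 positive. The late minus early change of this difference was 0.17 (SE 0.10, limma adjusted p = 0.506). The midgut list, read beside it, averaged 11.8 in RF and 11.4 in CF, with 5 of 10 genes called higher in RF, against 4.77% of all tested probe sets. In SF minus RF 3 of the 10 were called lower and 0 higher, where 1.95% of all tested probe sets were called in either direction. Of 5 flight muscle genes 2 were called higher and 1 lower in RF minus CF, against 4.77% and 2.65% of all tested probe sets. The part of these lists in this difference was not tested.

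In the switched flies CG11426 ended near RF. SF scored 9.40, 9.44, 9.19, 9.06, 9.37 and 9.74 at 2 to 18 h, and 9.55, 9.72, 9.72, 9.47, 9.39 and 9.47 at 24 to 72 h. CF scored 9.12, 9.35, 9.16, 9.46, 9.44 and 9.41 at the early hours, and 9.15, 9.24, 9.005, 9.18, 9.10 and 9.22 at the late ones. All late SF arrays lay above all late CF arrays, which was the case for 1 of the 5 tested paralogues (CG11426) and for 1.08% of all tested probe sets. SF minus CF was 0.41 at 24 to 72 h, positive at 6 of 6 hours (4.51% of all tested probe sets), and 0.04 at 2 to 18 h, positive at 4 of 6. Over the whole course it was 0.22 (SE 0.080, limma adjusted p = 0.180), with 10 of 12 hours positive, and it did not pass the test. It passed with array weights (0.29, adjusted p = 0.0131) and without 8 h (adjusted p = 0.0369), and its adjusted p ran from 0.0131 to 0.353 over all alternatives. The late minus early change was 0.36 (SE 0.13, limma adjusted p = 0.369). Set against RF, SF differed by -0.07 (SE 0.079, limma adjusted p = 0.700).

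The scores of CG11426 were also among those that ran most like CG11425. Over the 36 arrays their Pearson r was 0.709, the eighth highest of the other 9419 tested probe sets, and within cohorts it was 0.59 in SF, 0.68 in RF and 0.70 in CF. These are correlations over arrays that share hours and a normalization, and they are given as a description. For the other paralogues r with CG11425 was 0.235 for laza, -0.013 for CG11438, -0.060 for wun and -0.25 for wun2. Cohorts differed here: CG11438 had r = 0.80 with CG11425 in CF, 0.51 in RF and -0.30 in SF, and wun2 had -0.84 in CF, -0.58 in RF and 0.08 in SF.

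**Figure D2:**
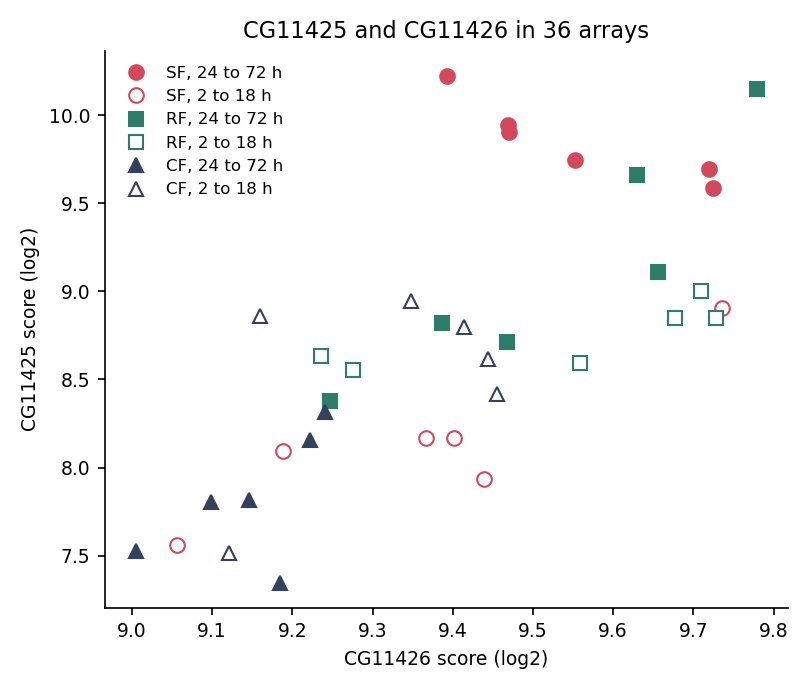
CG11425 score (log2) against CG11426 score (log2) in the 36 arrays at 2 to 72 h, with filled symbols for 24 to 72 h and open symbols for 2 to 18 h. The late SF arrays sit at 9.59 or more for CG11425 and 9.39 or more for CG11426, above all late CF arrays on both axes.

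**Figure D3:**
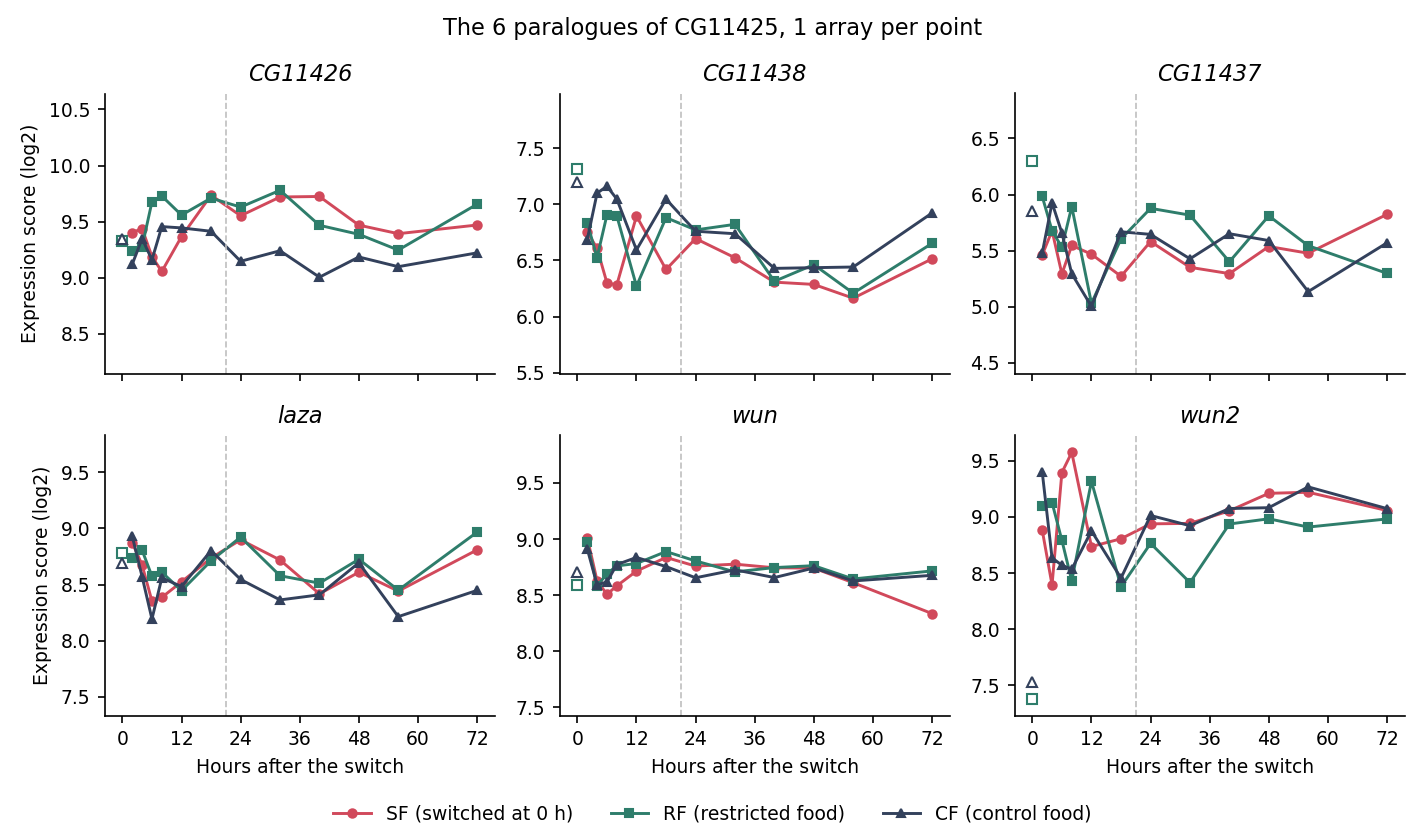
Expression score (log2) of the 6 paralogues against hours after the switch in SF, RF and CF, 1 array per point, each panel spanning the same number of log2 units, with open symbols for 0 h and a dashed line between 18 and 24 h. CG11426 separates SF and RF from CF late, wun varies little, and wun2 at 0 h (7.38 in RF and 7.53 in CF) is below every later array of its cohort.

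CG11438, which lies further along the cluster, leaned the other way. It averaged 6.48 in SF, 6.63 in RF and 6.78 in CF, so the means of SF and RF lay below that of CF, where for CG11425 they lay above it. The cohorts overlapped: the lowest, median and highest scores were 6.16, 6.47 and 6.90 in SF, 6.21, 6.71 and 6.91 in RF, and 6.43, 6.75 and 7.16 in CF. SF minus CF was -0.30 (SE 0.094, limma adjusted p = 0.112), positive at 2 of 12 hours, and RF minus CF was -0.15 (SE 0.057, limma adjusted p = 0.212). Neither passed the test. SF differed from RF by -0.15 (SE 0.093, limma adjusted p = 0.493). SF minus CF passed in a single fit of the 3 cohorts (adjusted p = 0.0416), with the eggshell mean as a covariate (-0.24, adjusted p = 0.0258) and without 12 h (adjusted p = 0.0392), and RF minus CF passed with the eggshell covariate (-0.17, adjusted p = 0.0287). At 24 to 72 h SF was below CF at 6 of 6 hours (mean -0.21, range -0.41 to -0.07), a pattern that 5.63% of all tested probe sets showed, and below RF at 6 of 6 (mean -0.12), as did 7.22%. Within CF its late mean of 6.62 was 0.32 below its early mean of 6.94 (SE 0.13, limma adjusted p = 0.195, where 0.202% of all tested probe sets were called). CG11437 stayed between 5.003 and 5.98 in all 36 arrays, with means of 5.48 in SF, 5.62 in RF and 5.50 in CF, and was below the minimum for testing.

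The photoreceptor gene laza leaned the same way as CG11426 but was not called. It averaged 8.62 in SF, 8.67 in RF and 8.52 in CF. RF minus CF was 0.15 (SE 0.060, limma adjusted p = 0.232), positive at 9 of 12 hours and at 6 of 6 late hours (mean 0.25), as in 14.4% of all tested probe sets at those hours. SF minus CF was 0.10 (SE 0.057, limma adjusted p = 0.449) over the course and 0.20 at 24 to 72 h, positive at 5 of 6 hours. The germ cell gene wun had the narrowest range of the tested members, with means of 8.69 in SF, 8.75 in RF and 8.71 in CF, and its 36 scores ran from 8.34 to 9.01. Its RF minus CF difference was 0.04 (SE 0.029, limma adjusted p = 0.546) and its SF minus CF difference -0.03 (SE 0.047, limma adjusted p = 0.808).

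The scores of wun2, the other germ cell gene, spread more over the early hours than over the late ones. It averaged 9.02 in SF, 8.84 in RF and 8.91 in CF, and its SF scores at 6 and 8 h were 9.40 and 9.58, against 8.79 and 8.43 in RF and 8.57 and 8.53 in CF. Over all tested probe sets, deviations from the cohort means at 6 and 8 h had r of -0.60 and -0.52 between SF and CF. Between SF and RF r was -0.25 and -0.68. The part of these array-wide shifts in the wun2 scores was not tested. At 2 h SF was the lowest, with 8.88 in SF, 9.09 in RF and 9.40 in CF. No difference over the course passed the test: SF minus CF was 0.11 (SE 0.12, limma adjusted p = 0.687), SF minus RF 0.17 (SE 0.14, limma adjusted p = 0.587) and RF minus CF -0.06 (SE 0.083, limma adjusted p = 0.732). With the eggshell mean as a covariate they were 0.03, 0.05 and -0.03. At 24 to 72 h RF stood below both other cohorts, which did not separate (SF minus CF averaged -0.0019, positive at 2 of 6 hours). SF lay above RF at 6 of 6 hours (mean 0.24, range 0.08 to 0.53), as did 5.45% of tested probe sets, and RF lay below CF at 6 of 6 hours (mean -0.24, range -0.51 to -0.09), as did 15%. The late minus early change of RF minus CF was -0.35 (SE 0.14, limma adjusted p = 0.371). At 0 h wun2 scored 7.38 in RF and 7.53 in CF, lower than any later array of either cohort. CG11438 at 0 h (7.31 in RF and 7.20 in CF) was above all later arrays of its cohort.

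**Figure D4:**
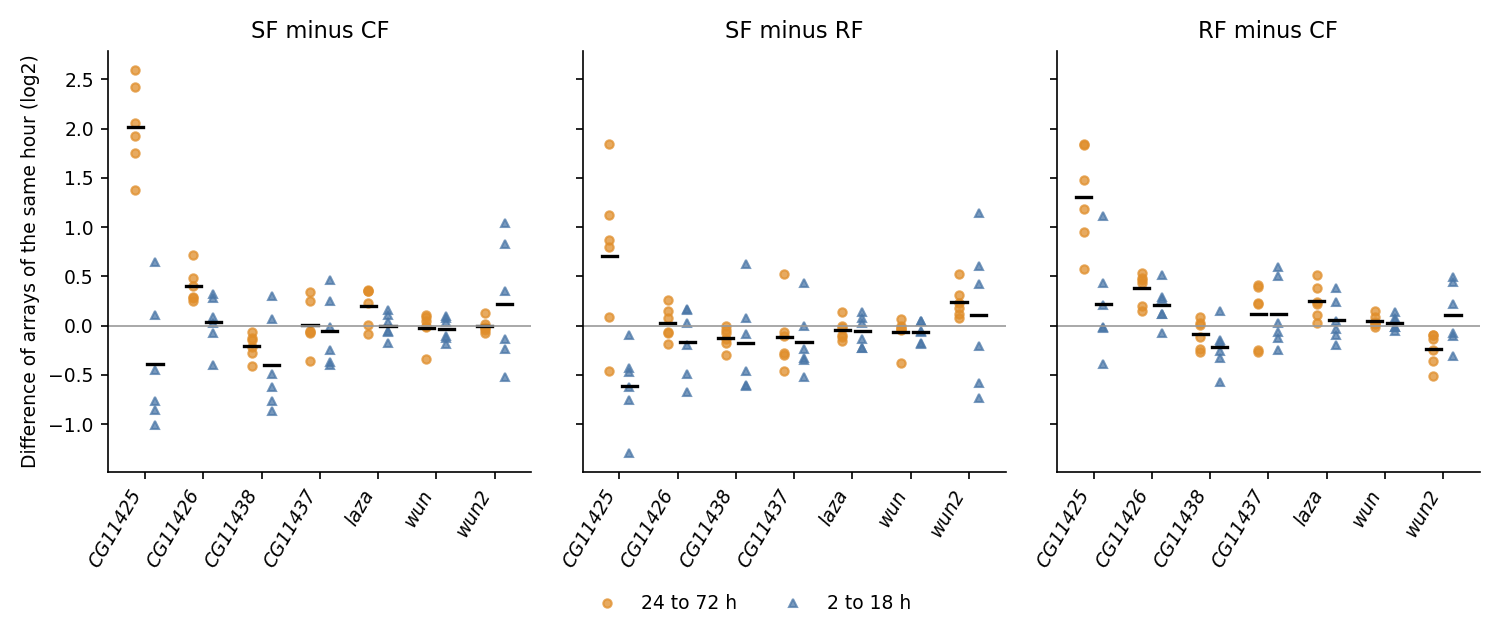
Differences of arrays collected at the same hour (log2) for the 7 genes in SF minus CF, SF minus RF and RF minus CF, with 24 to 72 h left of 2 to 18 h and a black bar for the mean of 6 differences. The late SF minus CF differences of CG11425 run from 1.38 to 2.60, and the highest late difference of any paralogue in that comparison is 0.72, for CG11426.

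Counted together, RF minus CF called 1 of the 5 tested paralogues higher and 0 lower (background 4.77% and 2.65%), with 3 at an unadjusted p under 0.05, against 23% of all tested probe sets, and a median difference of 0.04. The methods' t-test also called 1. In SF minus CF 0 were called by limma and 0 by the methods' t-test, with 2 at an unadjusted p under 0.05, where 1.8% of all tested probe sets were called and 9.12% had such a p. In SF minus RF 0 were called by either tool, with 0 at an unadjusted p under 0.05, where 1.95% of all tested probe sets were called and 12.4% had such a p. For the late minus early change 0 of the 5 were called in any of the 3 comparisons, with 1 at an unadjusted p under 0.05 in RF minus CF, 1 in SF minus CF and 0 in SF minus RF. The background share of calls there was 0% in each, since limma called 0 of 9420 probe sets, and 21.7% had an unadjusted p under 0.05 in RF minus CF, 14.2% in SF minus CF and 2.05% in SF minus RF.

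Other enzymes that make and use the same lipids were called at about the share of all tested probe sets, or not at all. Of 27 genes of phosphatidic acid and diacylglycerol metabolism, 25 were tested, and in RF minus CF 2 were lower and 0 higher (7.42% of all tested probe sets were called), with 9 at an unadjusted p under 0.05 (23% of all) and a median difference of 0.0053. Dgat2, which adds the last fatty acid in triglyceride synthesis, fell by 0.74 on the log2 scale in RF (SE 0.079, limma adjusted p = 1.66e-04). Agpat2, an acyltransferase that makes phosphatidic acid, fell by 0.33 in RF (SE 0.062, limma adjusted p = 0.00828). In SF minus CF, where 1.8% of all tested probe sets were called, 0 of the 25 were (2 at an unadjusted p under 0.05, median -0.02), with Dgat2 at -0.24 (SE 0.12, limma adjusted p = 0.403) and Agpat2 at -0.29 (SE 0.085, limma adjusted p = 0.0875). In SF minus RF, where 1.95% were called, 0 of the 25 were (4 at an unadjusted p under 0.05, median -0.05). Lpin, the cytosolic phosphatidic acid phosphatase, was at -0.01 in RF minus CF (SE 0.062, limma adjusted p = 0.935), and rdgA, the kinase that opposes laza, at 0.04 (SE 0.091, limma adjusted p = 0.867). All 14 genes of sphingolipid and sphingosine phosphate metabolism were tested, and limma called 0 in RF minus CF (2 at an unadjusted p under 0.05, median -0.06), 0 in SF minus CF (0, median -0.02) and 0 in SF minus RF (0, median 0.04).

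Of all tested genes, the 5 whose scores had the highest Pearson r with CG11425 over the 36 arrays were the alkaline phosphatase genes Alp8 (0.742) and phu (0.740), the serine protease gene Phae1 (0.737), the maltase gene Mal-B2 (0.721) and CG9837 (0.721). In SF, Alp8 averaged 7.49 late and 5.67 early, and phu averaged 11.3 late and 8.96 early. In RF, Alp8 averaged 7.35 late and 6.79 early, and phu 10.4 late and 9.72 early. In CF, Alp8 averaged 5.30 late and 5.41 early, and phu 6.60 late and 6.84 early, so the late means of both were above the early ones in SF and RF, and slightly below them in CF. Phae1 averaged 10.5 late and 10.1 early in SF, 10.4 late and 10.4 early in RF, and 9.86 late and 10.03 early in CF. Mal-B2 averaged 10.3 late and 10.03 early in SF, 9.99 late and 10.2 early in RF, and 9.37 late and 9.86 early in CF. Within cohorts r ran from 0.60 to 0.89 in SF over these 5 genes, from 0.31 to 0.76 in RF and from 0.02 to 0.74 in CF.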

How the data were processed

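RNA of head and thorax was measured on Affymetrix Drosophila 2.0 arrays, 1 per cohort and hour. The authors deposited log2 expression scores made by quantile normalization and RMA, which shrinks differences of dim probe sets; the table holds all 18952 probe sets, and a filter the methods also name was not applied to it. The number of arrays limits the precision. Array controls (183) were left out. Each comparison was fitted with limma 3.58.1 (R 4.3.3) to the 12 differences of arrays of the same hour, as the study's methods pair them, with p-values of the 3 comparisons adjusted together (Benjamini-Hochberg, 0.05) and a minimum mean score of 6. Late minus early fits set 24 to 72 h against 2 to 18 h. Those within a cohort were not paired and were fitted to the arrays of SF, RF and CF together. A probe set therefore had the same SE in each cohort. Deviations of same-hour arrays from their cohort means had a median correlation of 0.511 (RF and CF), 0.147 (SF and CF) and 0.0709 (SF and RF). Over single hours the correlation ran from -0.092 to 0.69, from -0.60 to 0.71 and from -0.68 to 0.66. Fits were tested on simulated data with independent noise for each array, which lack these correlations of same-hour arrays. Alternatives were no pairing, other filters, scalings, tests, adjustments and splits, an eggshell covariate, array weights and leaving out each hour. Array symbols were updated through RefSeq (13543 of 13646 probe sets with 1 symbol matched, 402 had several symbols and 4904 none); norpA had no probe set of its own symbol and Dgk was below the minimum. All 7 family members are named, with called genes of the pathway lists and the 5 genes most like CG11425 by Pearson r; Lpin, rdgA and the genes beside CG11425 in rank were added after their values were seen. Members and lists were chosen with earlier results of these data known.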

Additional observations from a re-analysis of the deposited data

Results flagged for a closer look

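In the early CF group of 6 arrays, the CG11425 score at 2 h, 7.52, lay far below the other 5, which ran from 8.42 to 8.94: its gap to the nearest was 0.63 of the whole range, just above Dixon's critical value for a group of that size. It was 1 of 42 such groups tested, and chance gives about 1 in 20. The RF array at 0 h, which enters no comparison of the course, scored 10.43 for CG11425, above the CF array at 0 h at 8.23.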

How the results depend on the processing

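Each of the 3 comparisons and each member kept its direction and its side of the threshold under the alternatives except as follows. RF minus CF called 699 probe sets, 338 without the pairing (no replicate block) and 1562 with array weights; SF minus CF called 170, 108 without the pairing, 469 with array weights, 298 in a single fit of the cohorts and 91 when adjusted on its own; SF minus RF called 184, 905 with array weights, 310 in a single fit, 117 when adjusted on its own and 294 with the eggshell covariate. Leaving out 1 hour gave 497 to 816, 94 to 209 and 121 to 259. Of the 5 tested paralogues the eggshell covariate called 2 in RF minus CF, against 1, and SF minus CF called 1 (against 0) with array weights, in a single fit, with that covariate or without 8 or 12 h (0 to 1 over single hours left out). CG11425 lost its RF minus CF call without the pairing (adjusted p = 0.0508), with no filter (0.0573), in a single fit (0.158) and in the methods' t-test (0.0917). With 1 hour left out its call held in only 3 fits (limma adjusted p = 0.0169 to 0.102 over all of them), and its difference ran from 0.67 to 0.87. The late minus early change in SF minus CF called 0 probe sets, and 1 without the pairing, with no filter, with each array centred on its median, when adjusted on its own and without 2 h (0 to 1). Within CF 19 probe sets changed from early to late hours, 0 with no filter or another split and 0 to 777 with 1 hour left out (777 without 12 h, 445 without 2 h). Within RF it was 0, with 0 to 42, and within SF 9, with 2 (no filter), 19 (split after 12 h), 0 (split after 24 h) and 1 to 55. With array weights wun2 turned to -0.0065 in SF minus CF and CG11426 to 0.013 in SF minus RF. Without 72 h wun turned to 0.0019 in SF minus CF (range -0.039 to 0.0019), and CG11425 in SF minus RF, 0.05 over the course, was negative without 40, 48, 56 or 72 h (range -0.11 to 0.17). Array weights were fitted to the paired differences, since a single fit did not converge. A minimum score of 7 left out CG11438, and with 1 probe set per member no other probe set could be tried. The cause of these shifts was not tested. With 1 array per cohort and hour, no single hour has an error of its own.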
